A study of Homo sapiens with 191 samples.

Results

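The isolated regions were those with no other accessible region near them: rows of the GM12878 list whose centre had no other row's centre within 100 kb on either side. There were 2513 of them among 50000, 5.03% (95% interval 4.84 to 5.22). They were chosen by the measured positions of the summits, so their spacing and their score, which come from the same peak calls, are given as a description without a test. GM12878 is a human lymphoblastoid line, derived from B lymphocytes of 1 donor with the help of Epstein-Barr virus. The cells carried no antibody stain, were fixed, permeabilized and transposed in bulk, and were then sorted singly into wells of 2 plates for MI-ATAC, a single-cell ATAC-seq protocol. The 96 libraries of plate 1 and 95 of plate 2 formed 1 group, and the regions were called on pooled cells (whether libraries that later failed the study's filter were among them is not stated), so neither replicates nor a second condition could be compared.

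ATAC-seq uses a transposase that inserts adapters where DNA is not wrapped tightly in nucleosomes, so that active promoters, enhancers and insulators stand out. Promoters of broadly used genes often lie in CpG islands, stretches rich in GC and in CG dinucleotides, and are accessible in many cell types. Enhancers often gather near genes of the cell's own lineage, whereas long gene-poor and AT-rich stretches of the genome, called gene deserts, hold few open sites in most cells and often flank large genes of neuronal adhesion and development.

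The sequences of 3 strong isolated promoters show what their centres held. Each is written 5′ to 3′ on the plus strand of hg19, and capitals mark a match to a consensus of a transcription factor family on either strand. NUDT16, an enzyme that hydrolyses nucleotides and RNA caps, had an SP/KLF match (GGGGCGGGG). MTR, methionine synthase, had 2 NFY matches (CCAATCA), and USP1, a deubiquitinase of DNA repair, had an NFY match followed by an EBF1 match (CCCNNGGGA). Over the whole list, SP/KLF letters were in 10.1% of regions, NFY letters in 6.60% and EBF1 letters in 12.7%.
NUDT16, chr3:131100442-131100562: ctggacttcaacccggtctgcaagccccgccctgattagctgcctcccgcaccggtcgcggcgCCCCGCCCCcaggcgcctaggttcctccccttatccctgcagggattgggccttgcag
MTR, chr1:236958461-236958581: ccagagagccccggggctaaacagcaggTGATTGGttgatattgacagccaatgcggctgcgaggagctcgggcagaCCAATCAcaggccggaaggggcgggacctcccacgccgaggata
USP1, chr1:62902198-62902318: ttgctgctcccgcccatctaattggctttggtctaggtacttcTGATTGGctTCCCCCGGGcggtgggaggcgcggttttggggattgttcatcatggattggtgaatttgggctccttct

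The next sequences are from distal regions, those more than 1 kb from any transcription start site (TSS) of a protein-coding gene. The TTC6 intron and the intergenic regions nearest to ZMAT1 and HDX were the strongest distal isolated regions with a match to the consensus of CTCF, the insulator protein that anchors chromatin loops. The match is in capitals and was found in 1.04% of the list. The TTC6 intron region was also the second most isolated region. The last sequence is from the region with the longest distance to its nearest centre, whose nearest protein-coding gene was GOLGA6L6, and the stretch shown held none of the 19 consensus motifs. All are on the plus strand of hg19.
near ZMAT1, chrX:101054433-101054513: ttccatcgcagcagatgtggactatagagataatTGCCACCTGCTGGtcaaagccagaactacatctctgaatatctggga
near HDX, chrX:83984874-83984954: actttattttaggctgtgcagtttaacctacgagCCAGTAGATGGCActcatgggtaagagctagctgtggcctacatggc
TTC6 intron, chr14:38343963-38344083: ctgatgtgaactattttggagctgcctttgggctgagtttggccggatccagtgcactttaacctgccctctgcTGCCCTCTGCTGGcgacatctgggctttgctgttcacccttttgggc
near GOLGA6L6, chr15:20559518-20559638: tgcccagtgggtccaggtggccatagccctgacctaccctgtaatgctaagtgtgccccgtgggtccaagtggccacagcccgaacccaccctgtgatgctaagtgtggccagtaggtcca

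Every region was 501 bp wide and carried a score, the authors' -log10 q-value of the summit over the pooled cells, from 16.0 to 4437.64. As a check of the label, the B cell markers MS4A1, CD79A, CD79B, PAX5, EBF1, BLK and POU2AF1 had a region within 1 kb of a TSS, and so did 1 of 4 markers of other lineages (CD14, but not CD3E, GATA1 or ALB). None of these promoter regions was isolated. Read depth is unknown from the list, and regions are not replicates, so the 95% intervals below cover counting error only.

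The nearest other centre lay 100.011 kb away at the least and 1408.6 kb at the most, with a median of 146.9 kb (quartiles 119.4 and 203.5). All other regions had a median of 3.55 kb. For 655 isolated regions (26.1%) the nearest centre was over 200 kb away, for 57 over 500 kb and for 6 over 1000 kb. The 100 regions just inside the limit, at 100011 to 102653 bp, had a median score of 22.8, a promoter share of 24% and a median surrounding GC of 38.7%. The 100 regions just outside it, at 97561 to 99927 bp, had 25.0, 28% and 38.6%. The values on both sides of the limit were close. Isolation also applied only within the list. The region names carry peak numbers that run along the chromosomes up to 513945, and each of the 2500 isolated regions with a neighbour on both sides had numbers missing between itself and those neighbours, a median of 62 over both sides. That is 13.4 missing numbers per 100 kb (quartiles 10.4 and 16.7), against a median of 17.6 peak numbers per 100 kb over the 23 chromosomes. Whether a missing number was a weaker peak or one removed by another filter was not tested.

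Isolated regions were mainly intergenic, which here means outside protein-coding genes and more than 1 kb from their TSSs. Noncoding genes were not used for the classes, so an intergenic centre can lie in one. Of the 2513 centres, 1397 were intergenic (55.6%, 53.6 to 57.5), 633 lay in an intron (25.2%, 23.5 to 26.9), 448 within 1 kb of a protein-coding TSS (17.8%, 16.3 to 19.4) and 35 in an exon (1.39%, 0.972 to 1.93). Among the other 47487 regions the intergenic share was 33.1% (32.6 to 33.5), the intron share 30.9% (30.5 to 31.3), the promoter share 33.5% (33.1 to 33.9) and the exon share 2.53% (2.39 to 2.68). No interval of the isolated regions overlapped that of the others. The promoter share of isolated regions was lower than that of the other regions on 22 of 23 chromosomes. The exception was the gene-dense chromosome 19, where it was 72.7% of 33 isolated regions against 69.1%.

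**Figure D1:**
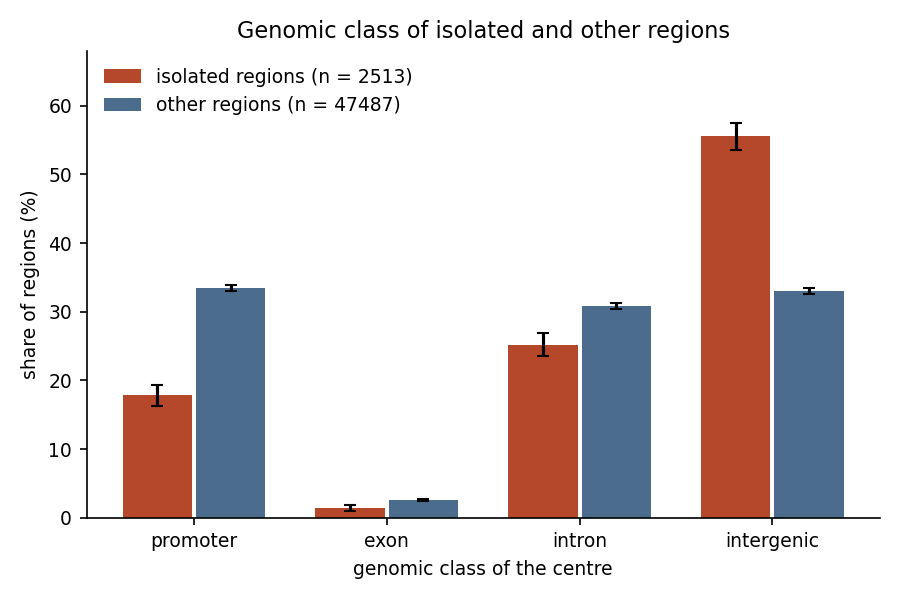
Share of isolated regions (n = 2513) and other regions (n = 47487) whose centre lay in each genomic class, in percent, with exact binomial 95% intervals as error bars. Classes refer to protein-coding genes only. The intergenic bar is higher for isolated regions (55.6% against 33.1%) and the promoter bar lower (17.8% against 33.5%).

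The shares changed with distance to the nearest centre. Regions 50 to 100 kb from their nearest neighbour held 26.4% promoters (25.0 to 27.8, n = 3888). The share was 20.3% (18.5 to 22.2, n = 1858) at 100 to 200 kb, 11.6% (9.07 to 14.7, n = 541) at 200 to 400 kb and 6.14% (2.504 to 12.2) beyond 400 kb. Between 1 and 100 kb the share stayed between 22.8% and 26.4%, and it was 52.4% under 1 kb, where several summits of 1 promoter are counted. The median number of protein-coding genes with a TSS within 500 kb was 5 at 50 to 100 kb, 3 at 100 to 200 kb and 1 beyond that.

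**Figure D2:**
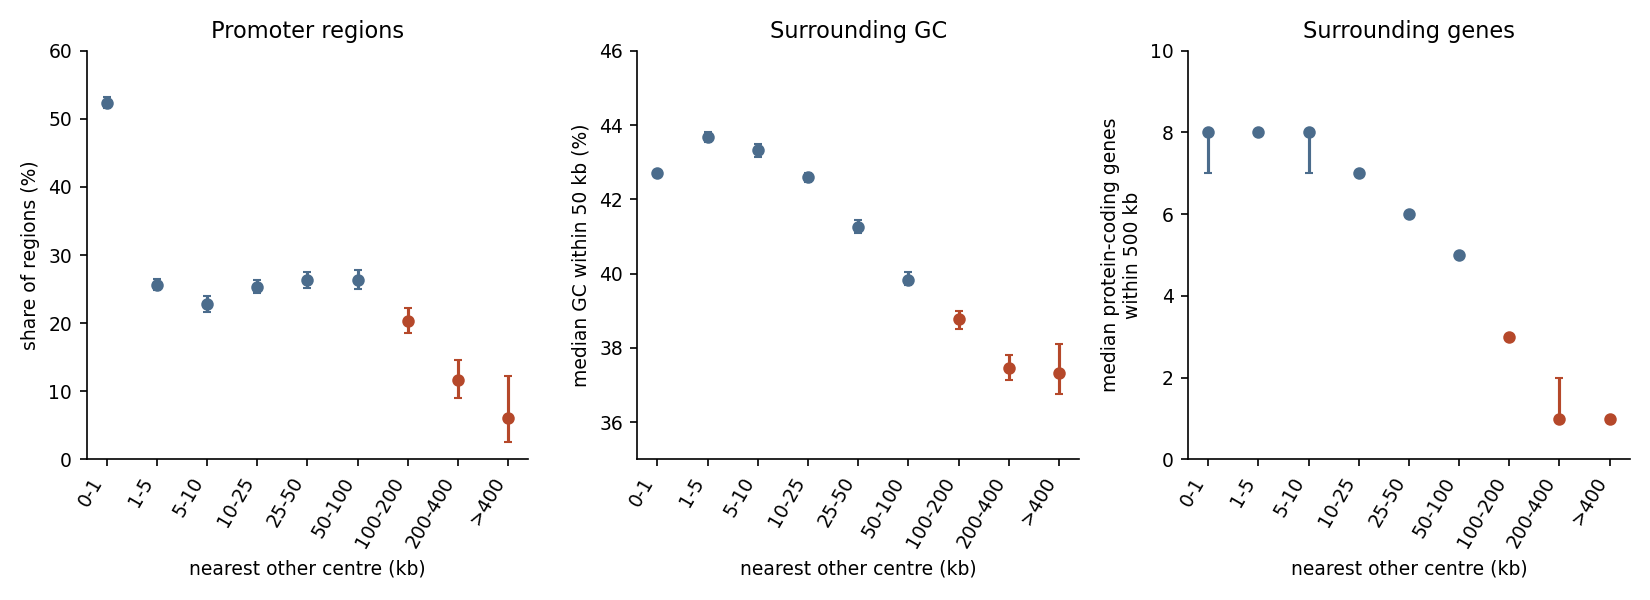
Promoter share (exact binomial 95% intervals), median GC within 50 kb and median number of protein-coding genes within 500 kb (exact 95% intervals of the median), by distance to the nearest other centre in kb; red points are isolated regions and blue points the others. Beyond 100 kb all 3 values are lower than at 50 to 100 kb, with promoter shares of 20.3%, 11.6% and 6.14%.

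Isolated regions lay farther from protein-coding TSSs than the other regions. The median distance to the nearest protein-coding TSS was 96442 bp (86514 to 105851), against 6249 bp (6025 to 6502) for the others. With TSSs of all annotated genes the medians were 17621 bp against 2803 bp. The distance to a protein-coding TSS exceeded 100 kb for 1235 isolated regions (49.1% against 11.8%) and 500 kb for 350 (13.9% against 2.19%). For 495 (19.7% against 3.21%) no protein-coding gene started within 500 kb. The isolated intergenic regions were farther still, at a median of 236562 bp, and the isolated intronic ones lay 42575 bp from a TSS. The rule itself favours long distances and few genes, since a listed promoter within 100 kb of a region would end its isolation. How much of these differences the rule accounts for was not tested. The 5 regions farthest from any protein-coding TSS had low to moderate scores. A pair nearest to ARAP2 on chromosome 4 lay 2.30 and 2.16 Mb from its TSS and 138.5 kb from each other (scores 78.5 and 22.8). The others were 2.28 Mb from TENM3, a teneurin of synaptic partner matching (score 25.7), 2.03 Mb from CDH9, a cadherin (21.4), and 2.00 Mb from C4orf33 (17.3). None of these 5 had a protein-coding gene starting within 500 kb.

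Intronic isolated regions sat in very long genes. The 633 regions fell in 503 host genes, of which 418 held 1, 85 held at least 2 and 26 at least 3. The median host was 379 kb long, against 27.3 kb over all protein-coding genes. Where genes overlapped, the longest was taken as the host. Host lengths of the other 14664 intronic regions were not measured. Whether long hosts are particular to isolated regions, or favoured by the rule, was therefore not tested. PTPRD, a receptor phosphatase of synapse formation, held 6. ATRNL1, DAB1 (an adaptor of reelin signalling), EYS (a photoreceptor protein), MACROD2 and ROBO2 (an axon guidance receptor) held 5 each. The 2513 isolated regions had 1776 distinct nearest protein-coding genes, and PCDH7, a protocadherin, was nearest to the most, 10. These genes were named after their counts were seen.

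Gene lists differed in how often their members had isolated regions nearby. Over all regions, 5.03% were isolated. Of the regions nearest to 93 cadherins and protocadherins, 66 of 309 were isolated (21.4%, 16.9 to 26.4). The share was 41 of 231 (17.7%, 13.0 to 23.3) at semaphorins, ephrins, netrins and their receptors, which guide axons, and 80 of 465 (17.2%, 13.9 to 20.9) at genes of neuronal adhesion and the synapse. Developmental transcription factors (26 of 312, 8.33%, 5.52 to 12.0) and potassium channels (27 of 330, 8.18%, 5.46 to 11.7) were also above 5.03% with their whole interval. B cell and NF-kB genes had few isolated regions. Regions nearest to 24 B cell identity genes were isolated in 2 cases (1.10%, 0.134 to 3.93) and those nearest to 26 NF-kB genes in 1 case (0.719%, 0.0182 to 3.94). Zinc finger genes named ZNF had 35 of 981 (3.57%, 2.497 to 4.93). The intervals of cell cycle genes (2, 2.06%), ubiquitin and proteasome genes (2, 1.80%), olfactory receptors (7, 7.22%) and mitochondrial genes (7 of 61, 11.5%, 4.74 to 22.2) included 5.03%. Regions near 1 gene are not independent of each other. The lists were chosen with earlier results of these data known. Gene length and surroundings, which bear on how many regions the rule can call isolated, were not matched between lists.

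**Figure D3:**
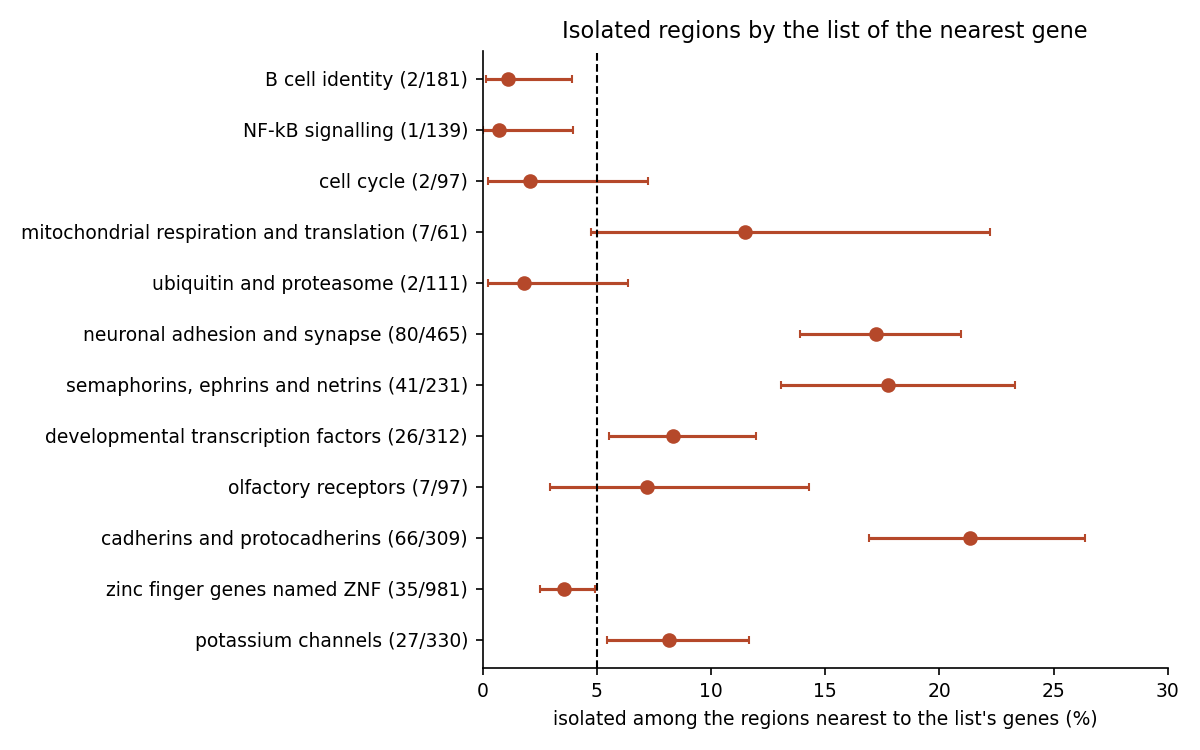
Share of the regions nearest to each list's genes that were isolated, in percent, with exact binomial 95% intervals; the counts are beside each name and the dashed line is the 5.03% of the whole list. Cadherins (21.4%), axon guidance genes (17.7%) and neuronal adhesion genes (17.2%) lie to the right of the line, B cell (1.10%) and NF-kB genes (0.719%) to the left.

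An isolated promoter region was found at 500 protein-coding genes, 4.35% (3.98 to 4.74) of the 11499 with any promoter region. Among genes of neuronal adhesion and the synapse it was 9 of 16. NLGN1, a postsynaptic neuroligin, scored 167.9. DLG2, a postsynaptic scaffold (60.9), and CTNNA2, a neuronal catenin (30.1), were weaker. Among guidance genes it was 4 of 15, at SEMA3C (54.1), EPHA7 (39.4), SEMA3A (33.1) and UNC5D (18.7), which encode semaphorins, an ephrin receptor and a netrin receptor. The olfactory receptors had 3 of 13, at OR52N2 (66.1, inside the host gene TRIM5), OR10AC1 (18.7) and OR6B1, which was at the lowest score of the list (16.0). The zinc finger genes had 18 of 382, led by ZNF81 (337), ZNF160 (210) and the pair ZNF354B (208) and ZNF354A (182.4), whose regions lay 129.1 kb apart. The potassium channels had 2 of 30, KCNH1 (82.1) and KCNK13 (44.2), the cadherins 1 of 29, CDH11 (24.3), and the developmental factors 1 of 17, MEIS1 (66.1). The B cell list had 1 of 19, BANK1, a scaffold of B cell receptor signalling, which scored 289 and lay 333 kb from its nearest centre. The mitochondrial list had 1 of 24, MRPL3, a mitochondrial ribosomal protein (155.6), which was 121.3 kb from NUDT16, each being the other's nearest region. None was found at the 23 NF-kB, 25 cell cycle or 24 ubiquitin and proteasome genes with a promoter region.

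Isolated promoter regions had higher scores than isolated distal regions. The median score was 60.0 (quartiles 27.2 and 183.4) in the 448 promoter regions and 20.0 (17.3 and 27.2) in the 2065 distal ones, against 64.3 and 25.7 in the other regions. Distal scores were lower than in the other regions on all 23 chromosomes, promoter scores on 14 and higher on 9. The near equality of the promoter medians depended on which rows were compared. Keeping the strongest region per gene took 448 isolated promoter regions to 432, and 15917 others to 9888. The region kept was chosen by the score itself, which raises the median most where genes had several regions. How much of the difference below comes from this choice was not tested. With only the strongest region kept per gene, the median was 65.2 (54.1 to 82.1, n = 432) at isolated promoters and 117.9 (112.1 to 121.7, n = 9888) at the others. It was 76.7 for promoters 50 to 100 kb from their neighbour. A summit letter in the name, which marks a peak split into several summits, occurred in 10.5% of isolated regions and 37.9% of the others. The rule itself lowers the share in isolated regions, since another listed summit of the same peak would end the isolation. Over all regions the median score was 21.4 against 31.6, and 258 isolated regions (10.3% against 5.99%) sat at the lowest score in the list. Scores above 100 were reached by 240 (9.55% against 20.2%) and above 1000 by 12. When the list was split at its score quartiles, 8.33%, 5.87%, 3.03% and 2.52% of regions were isolated, from the weakest group to the strongest.

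**Figure D4:**
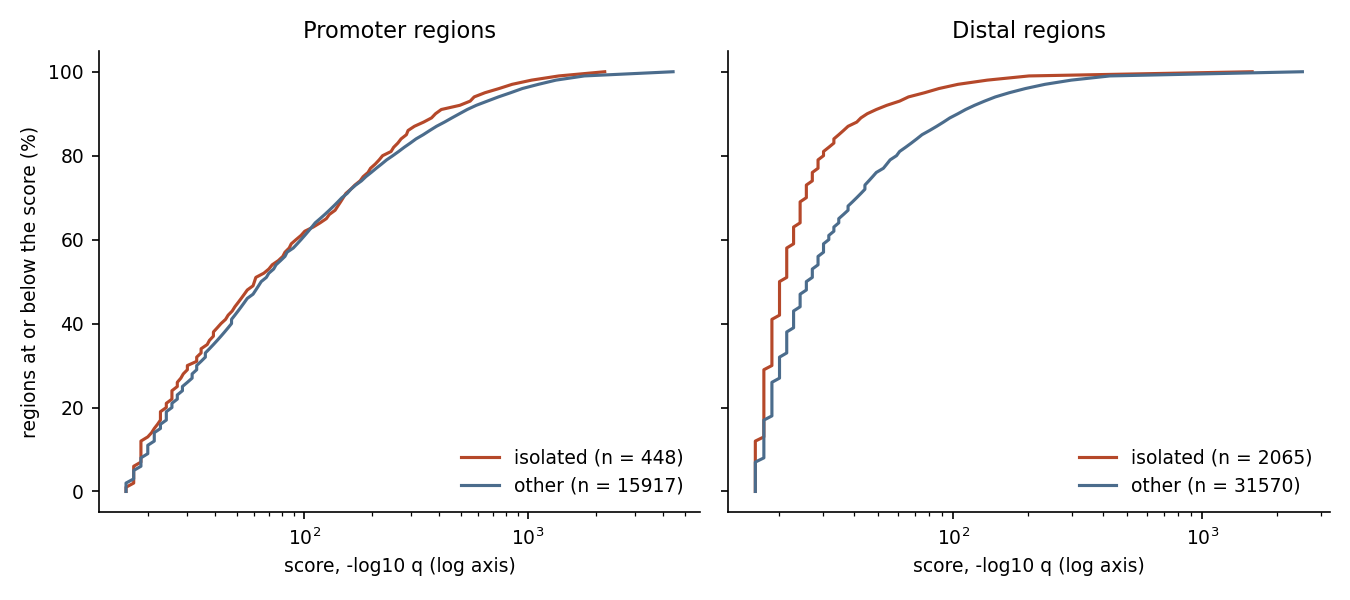
Percent of regions at or below each score (-log10 q, log axis), for isolated (red) and other (blue) regions, promoter regions on the left and distal regions on the right. The promoter curves, which count all promoter regions, lie close together (medians 60.0 and 64.3). With the strongest region per gene, chosen by the score itself, the promoter medians were 65.2 and 117.9. The distal curve of isolated regions rises earlier (medians 20.0 and 25.7).

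The strongest isolated regions were mainly promoters, 11 of the 12 with the highest scores. The strongest of all (score 2197.66, 78th of the list by rank) lay on chromosome 8 at 109455525 to 109456025, at the promoter shared by EIF3E, a subunit of a translation initiation factor, and EMC2, of the endoplasmic reticulum membrane complex. It was 117.3 kb from its nearest centre. NUDT16 followed with 1955.11 on chromosome 3, then MTR with 1687.44 and USP1 with 1635.67 on chromosome 1. Their regions lay 121.3, 190.6 and 164.4 kb from the nearest centre. Further promoters among the 12 strongest were SPATA4 (1470.3), FAM72D (1260.04), the shared promoter of FTO, an RNA demethylase, and RPGRIP1L, a ciliary protein (1190.94), WDR19, of ciliary transport (1130.56), that of ZCWPW2 and AZI2 (1030.0) and C12orf29 (1019.2). Of the promoters named here, FAM72D alone had unsequenced bases within 100 kb, and near-identical FAM72 copies exist elsewhere on the chromosome, so that reads of these genes are hard to place. Whether mapping had a part in its isolation was not tested.

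The strongest 12 also held 1 region that was distal by the rule. It scored 1586.97 on chromosome 4 at 120375615 to 120376115, 51.2 kb from the TSS of PDE5A, a phosphodiesterase of cyclic GMP, but 52 bp from the TSS of the long noncoding RNA ENSG00000291203. Other strong distal regions lay at such starts too, 3 bp from the start of GUSBP1 in the CDH12 region (574), 3 bp from ENSG00000289367 near OR2L8 (495) and 17 bp from ENSG00000290989 near FBXO28 (360). Those at ANK2, an ankyrin (exon, 783), ANKS1B (intron, 617), near GNL3L (614) and near MAGED4 (362) did not. In all, 6.15% (5.15 to 7.27) of the 2065 distal isolated regions were within 1 kb of the TSS of another kind of annotated gene, against 8.45% of the other distal regions. The 91 at a long noncoding RNA had a median score of 31.6 and a GC content of 56.3%. The 1938 near no annotated TSS had medians of 20.0 and 47.1%.

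Among the most isolated regions, the one near GOLGA6L6 on chromosome 15 (20559328 to 20559828, score 20.0) was 1408.6 kb from its nearest centre. It was the first region of its chromosome, so that it had a neighbour on 1 side only. The TTC6 intron region on chromosome 14 (71.3) was 1171 kb away from its neighbour, and the promoter of ZNF658 on chromosome 9 (161.7) was 1163 kb away. The next was 40 bp from the start of the noncoding gene GLIDR on chromosome 9 (137.5), at 1131 kb, and the fifth lay 480 kb from SEMA6D, a semaphorin (24.3), at 1061 kb. Of all isolated regions, 53 (2.11%, 1.58 to 2.75) had unsequenced bases or a chromosome end within 100 kb, against 1.21% of the others.

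The sequence around isolated regions was poorer in GC than around the others. The median GC within 50 kb on either side, without the region itself, was 38.4% (38.2 to 38.6) against 42.6% (42.5 to 42.7), and it was lower on all 23 chromosomes. The difference held within classes, at 41.0% against 43.3% for promoter regions and 37.9% against 42.3% for distal ones. The regions themselves differed less, with 63.3% (62.3 to 64.3) against 62.1% (61.9 to 62.3) at promoters and 47.3% (47.1 to 47.7) against 48.3% (48.1 to 48.3) at distal sites. An isolated region therefore stood out more from its surroundings, by a median of 21.3 against 17.0 percentage points at promoters and 8.58 against 5.89 at distal sites. With the strongest region per gene, the promoter contrast was 21.6 (20.6 to 23.2) and 19.1 (18.9 to 19.4) points, while the GC content of the promoter regions themselves turned to 63.7% (62.5 to 64.7) against 64.1% (63.9 to 64.3). Regions 50 to 100 kb from their neighbour had intermediate surroundings, 39.8%.

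**Figure D5:**
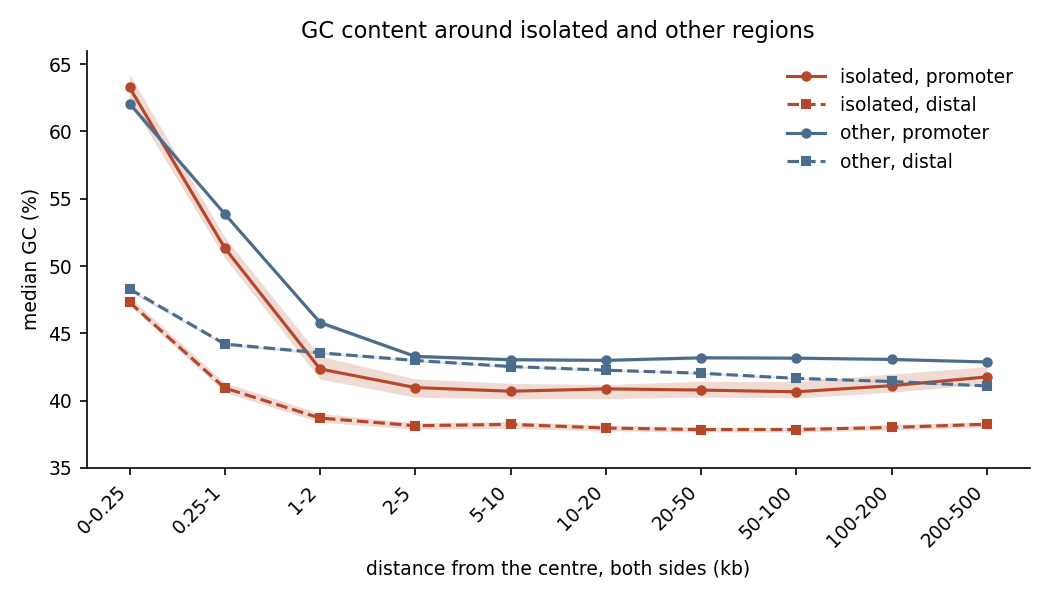
Median GC content (percent, with exact 95% intervals as bands) in shells of distance from the centre in kb, for promoter (solid) and distal (dashed) regions that were isolated (red) or not (blue). The isolated curves fall from 63.3% and 47.3% at the centre to 41.0% and 38.1% at 2 to 5 kb and stay below those of the other regions of their class out to 500 kb.

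The lower GC began close to the region. At 1 to 2 kb from the centre, isolated promoters had 42.4% against 45.8%, and at 0.25 to 1 kb 51.3% against 53.9%. Isolated distal regions had 40.9% against 44.2% at 0.25 to 1 kb and 38.2% against 41.1% at 200 to 500 kb. Most isolated promoters were CpG islands by composition. A GC content of at least 55% with a ratio of observed to expected CG dinucleotides of at least 0.6 was found in 344 of 448 (76.8%, 72.6 to 80.6), against 64.4% (63.6 to 65.1) of the other promoter regions. Only 74 distal isolated regions (3.58%, 2.82 to 4.48) met it, against 4.94% (4.70 to 5.18). Isolated promoters were also centred closer to the TSS, with 58.5% (53.8 to 63.1) within 100 bp against 44.7% (44.0 to 45.5). Both differences were small when the strongest region per gene was kept, with island composition in 79.4% (75.3 to 83.1) against 78.1% (77.3 to 78.9) and centres within 100 bp in 60.2% (55.4 to 64.8) against 57.6% (56.6 to 58.5), and the intervals overlapped. Genes on both strands shared 9.82% (7.23 to 13.0) of them, against 11.8% (11.3 to 12.3).

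For 1008 of the 2065 distal isolated regions (48.8%, 46.6 to 51.0) the nearest protein-coding gene had a promoter region in the list, against 76.8% (76.3 to 77.3) of the other distal regions. The rule itself lowers this share, since a listed promoter within 100 kb would end the isolation. Among regions whose nearest TSS lay beyond that reach, the share was 60.3% (57.5 to 63.1, n = 1232) against 69.7% (68.5 to 70.9, n = 5570).

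Motif matches are a description of letters and not of binding. The 19 consensus motifs were searched on both strands of each region. Besides SP/KLF, NFY and EBF1 they were TGANTCA for AP-1, ACCGGAAGT for ETS factors, GCATGCGC for NRF1, AAGATGGCG for YY1, TGACGTCA for the cyclic AMP response element (CRE), TGTGGTT for RUNX, ATGCAAAT for the octamer of B cell OCT factors, GAGGAAGTG for PU.1, GGGANTTCC for NF-kB, GAAANNGAA for the interferon element, CAGCTG for an E-box, CTAAAAATA for MEF2, AGATAAG for blood GATA factors and TATAAAAG for the TATA box, with CTCF and HNF1 by name. Matches to different motifs could overlap and were counted separately. In distal isolated regions 4 motifs were rarer than in the other distal regions, with intervals that did not overlap. AP-1 letters were in 16.8% (15.2 to 18.5) against 21.0% (20.6 to 21.5), and EBF1 letters, of a factor that sets B cell identity, in 7.75% (6.63 to 8.99) against 11.0% (10.6 to 11.3). The octamer was in 2.86% (2.18 to 3.67) against 3.96% (3.75 to 4.18) and SP/KLF letters were in 1.55% (1.06 to 2.18) against 2.90% (2.72 to 3.09). When only the central part of each region was searched, the intervals of AP-1 (7.12% against 9.48%) and EBF1 (3.63% against 5.58%) stayed apart, and those of the octamer (1.11% against 1.33%) and SP/KLF (0.969% against 1.498%) overlapped. Over the whole list AP-1 letters were in 16.9% and the octamer in 3.30%. The intervals of the other 15 motifs overlapped. That included CTCF, with 1.502% (1.02 to 2.13) against 1.33% (1.20 to 1.46), which turned to 0.727% against 0.757% in the central part, and NF-kB, with 3.00% (2.31 to 3.83) against 3.396% (3.20 to 3.60).

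In isolated promoter regions 2 motifs were more frequent than in the other promoter regions. SP/KLF letters were in 32.1% (27.8 to 36.7) against 24.7% (24.1 to 25.4) and the CRE in 5.13% (3.28 to 7.60) against 2.65% (2.41 to 2.91). Over the whole list these were in 10.1% and 1.27%. Both differences were smaller with the strongest region kept per gene. SP/KLF letters were then in 33.1% (28.7 to 37.8) against 31.3% (30.3 to 32.2). The CRE was in 5.32% (3.40 to 7.88) against 3.69% (3.33 to 4.08). The intervals of all 19 motifs overlapped, those of the isolated regions resting on 432 regions only. In the central part of all promoter regions, AP-1 letters were rarer in isolated ones, 1.786% (0.774 to 3.49, 8 of 448) against 3.80% (3.51 to 4.11). SP/KLF letters were more frequent there, 19.4% (15.9 to 23.4) against 14.2% (13.7 to 14.8). The intervals of the other 17 motifs overlapped. The central part was not searched with the strongest region kept per gene.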

How the data were processed

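Single-cell MI-ATAC libraries of GM12878 were pooled by the authors into 1 list. The authors mapped trimmed read pairs to hg19, discarded duplicates and mitochondrial or poorly mapped reads, called summits at a q-value of 0.05, widened them and kept those of lowest q-value. Tools in the submitters' processing notes are Bowtie2 2.1.0 and Picard 1.79, besides MACS2 (version not given in the sources used here). Each deposited score is -log10 of that q-value and ranks regions within the list, and is not scaled per cell. The list gives no read depth. Removal of low-quality alignments can hide regions in repeated sequence.

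A centre was the middle of the row. Sequence was GRCh37 and genes were GENCODE 44 mapped to it, with coordinates 1-based. All TSSs of protein-coding genes were used, and classes were assigned in the order promoter, exon, intron, intergenic. Exons and gene bodies were those of protein-coding genes only. Intervals are exact binomial for shares and order-statistic for medians, at 95%. No test was run. The 3 regions holding N were left out of motif counts. Members, the 12 gene lists and the 19 motifs were chosen with earlier results of these data known. The regions named were the 12 strongest, the 8 strongest distal, the 5 most isolated, the 5 farthest from a TSS and up to 4 members with an isolated promoter per list. Some genes among these and among the markers are not reported here. Sequences were taken by rule outside 1 chromosome. Alternatives changed the distance, the part of the list, gaps, TSSs, windows and comparison rows. Comparisons with rows 50 to 100 kb apart (class and GC), with the strongest row per gene, with the strongest row of each run within 10 kb and with distal rows whose nearest TSS is beyond the neighbour distance were added after seeing the data. The functions were tested on simulated data. Software was scipy 1.17.1, pandas 2.3.3, numpy 2.4.6 and matplotlib 3.10.9 under Python 3.11.15.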

Additional observations from a re-analysis of the deposited data

How the results depend on the processing

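The direction against the other regions was kept in 66 of the 68 alternatives that have one. The exceptions were CTCF letters in distal regions, 0.727% in the central part of the region, and the GC of promoter regions, 63.7% with the strongest region per gene. With neighbours counted within 50 kb, 6401 regions were isolated, with a promoter share of 23.0%, a TSS distance of 49981 bp, a surrounding GC of 39.3%, a region GC of 49.5% and 4 genes within 500 kb. Within 200 kb these were 655, 10.7%, 194786 bp, 37.4%, 47.9% and 1. Above the median score of the list the number stayed close, at 2408, but the values moved to 40.4%, 10844 bp, 39.8%, 53.9% and 5, with a median score of 64.3. There the other regions had a promoter share of 48.1%. The promoter share was 19.7% with a window of 2.5 kb, 13.2% with outermost TSSs (distance 177054 bp) and 22.9% with TSSs of all annotated genes (17621 bp). Surrounding GC was 39.2% within 5 kb and 38.7% within 500 kb. The median number of genes was 0 within 100 kb and 7 within 1 Mb. By the value of the isolated regions alone, 35 alternatives stayed within the limits set, 36 moved and 2 reversed. This tally leaves out changes in the other regions. With the strongest region per gene, the promoter score counted as staying, at 65.2 after 60.0. The other promoter regions went from 64.3 to 117.9 there. Against the strongest region of each run within 10 kb, the other regions had a promoter share of 34.3% and a median score of 39.4.

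Because the list is pooled, leaving out a library was not possible and no spread between cells, plates or cultures was measured. No paired analysis was possible because all libraries form 1 group. Depth sets which regions reach the list, so an isolated region is isolated at this depth and list length only.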

Other observations

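Some isolated regions followed each other along a chromosome. Of the 2513, 1043 had no isolated region as a neighbour in the list. The other 1470 stood in runs of at least 2 with no other region between them. The rule itself favours such runs, since the neighbour of an isolated region already has no centre within 100 kb on that side. How many runs the rule alone would give was not tested. Runs of at least 4 numbered 96 and held 443 regions. The longest run, of 9 regions, spanned 4.49 Mb of chromosome 14, from 83721420 to 88212324, and the next ones held 8 regions each, over 5.64 Mb of the X chromosome and 3.36 Mb of chromosome 16. These runs were picked for their length after the values were seen.

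The share of regions that were isolated was highest on the X chromosome, 7.73%, and on chromosome 13, 7.45%, and lowest on chromosome 19, 3.01%. GM12878 is of a single donor and each chromosome is 1 observation, so these values are a description.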
